A study of Mus musculus with 24 samples.

Results

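The p21 and cell cycle inhibitor network was followed through 10 genes in a study of muscle wounds in 2 mouse strains. These were the inhibitors Cdkn1a (p21), Cdkn1b (p27), Cdkn1c (p57), Cdkn2a (p16 and p19Arf), Cdkn2b (p15) and Cdkn2c (p18), the p53 gene Trp53 and its antagonist Mdm2, the cyclin Ccnd1, and Rb1, the gene of the retinoblastoma protein. They were chosen by symbol, because loss of p21 has been proposed as a basis of healing in MRL mice, and 10 of 10 were among the 14159 genes of the deposited matrix. Bulk RNA of whole quadriceps was sequenced from young female mice of the strains C57BL/6, called B6, and MRL/MpJ, called MRL, with 3 libraries in each of 8 groups and 24 in all. Both are inbred strains, and MRL mice are known for closing ear wounds and for autoimmune disease. In each strain the muscle was left uninjured, or a volumetric muscle loss (VML) injury was made and received saline (the control injury), decellularized pig intestinal extracellular matrix powder (ECM) or polyethylene powder (PE), and injured muscle was taken 21 days post-injury. The study's methods describe the samples as independent. In the main fit the spread between samples of a group was pooled over all 8 groups. A gene therefore has the same standard error in every comparison of 2 groups, whatever the spread in those groups.

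Values are log2 CPM (read counts scaled to a common library size) as deposited, so that a difference of 1 is a doubling, and they compare a gene between libraries but not different genes with each other. A gene was called changed at an adjusted p under 0.05 in limma over all 14159 genes. Groups of 3 libraries often did not overlap, in either direction. Between strains this held for 21.8% of all genes in uninjured, 15.2% in saline-treated, 25.8% in ECM-treated and 17.5% in PE-treated muscle. Against uninjured muscle it held for 51.1% after PE and 32.3% after ECM in B6, and for 38.8% after PE in MRL. The matrix gives no depth per library. The mean effective library size that its lowest value implies was 25149678 reads, and 3 counts corresponded to -2.33 on the log2 scale. The tissue label held, since the 6 fibre markers summed to between 24510 and 156300 CPM in every library. A pair of libraries stood apart from their groups. Saline-treated B6 replicate 2 had regenerating fibre markers (Myh3, Myh8 and Myog) summing to 20.9 CPM against 885.8 and 979.1 in the other saline-treated B6 libraries, near the 12.4 to 21.1 of uninjured B6 muscle. PE-treated MRL replicate 2 had a correlation as low as 0.812 with another library of its group over all genes, and its macrophage markers summed to 941.7 CPM against 136.1 and 125.0. Member differences whose call changed without either library are given both ways. Of all genes 3490 were called between PE-treated strains and 4637 in the strain average without PE-treated MRL replicate 2 (474 and 2158 with it). Without saline-treated B6 replicate 2 the strain average had 2990 calls. Saline-treated strains then had 613 calls (356 with it) and B6 saline minus uninjured 456 (0 with it).

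Cyclin D1, the product of Ccnd1, activates CDK4 and CDK6, which phosphorylate the retinoblastoma protein and so release the E2F factors that start DNA replication. The INK4 inhibitors (p15, p16, p18) bind CDK4 and CDK6 alone, while the Cip/Kip inhibitors (p21, p27, p57) act on a wider range of cyclin and CDK complexes. p53 induces p21 and also Mdm2, which in turn marks p53 for degradation, and in muscle p21 and p57 accompany the exit of myoblasts from the cell cycle.

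The sequence before the start of Cdkn1a is shown because p53 induces this gene, and that of Cdkn2b because it was the inhibitor that differed between strains across treatments. RefSeq windows (GRCm38.p6) were held for 7 of 10 members, with Cdkn1c, Ccnd1 and Rb1 missing, and each was placed on GRCm39 by an exact match. The bases before the start that lie outside the gene's annotated exons are printed 5′ to 3′, with matched motifs in capitals. They are from the C57BL/6J reference, and MRL sequence was not analysed here. The first Cdkn1a window is chr17:29309703-29309935 (+ strand), the second chr17:29312493-29312737 (+ strand) and the Cdkn2b window chr4:89229277-89229519 (- strand).
Cdkn1a window 1: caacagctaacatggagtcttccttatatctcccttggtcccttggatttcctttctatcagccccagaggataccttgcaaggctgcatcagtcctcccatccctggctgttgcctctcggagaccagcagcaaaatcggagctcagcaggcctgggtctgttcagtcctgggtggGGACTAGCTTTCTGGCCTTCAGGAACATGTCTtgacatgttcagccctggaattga
Cdkn1a window 2: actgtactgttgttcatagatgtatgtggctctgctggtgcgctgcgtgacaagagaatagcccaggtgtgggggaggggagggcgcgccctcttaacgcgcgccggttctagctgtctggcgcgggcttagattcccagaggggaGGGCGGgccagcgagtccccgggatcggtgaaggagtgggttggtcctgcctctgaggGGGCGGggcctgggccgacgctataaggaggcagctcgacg
Cdkn2b window 1: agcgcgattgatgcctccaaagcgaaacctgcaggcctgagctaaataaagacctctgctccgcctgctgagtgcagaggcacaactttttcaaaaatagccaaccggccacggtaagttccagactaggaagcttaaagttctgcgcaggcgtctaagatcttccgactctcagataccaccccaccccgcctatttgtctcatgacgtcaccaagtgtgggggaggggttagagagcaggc

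Motifs were searched on both strands of the 250 bases before each start. Cdkn1a window 1 held the paired p53 motif (up to 13 bases between its parts) from 73 to 42 bases before the RefSeq start, a match found in 0.0639% of 32851 windows. The capitals include the bases between its parts, GGACTAGCTT and GAACATGTCT. The letters tgacatgttc directly after them miss the searched part only at their first base and are not marked. The capitals therefore show what the search matched and do not delimit a p53 site. Cdkn1a window 2, before the start of the canonical transcript, held 2 matches of the GC box GGGCGG, which 32.7% of windows hold. Cdkn2b had no match of these, of the E-box CAGCTG (13% of windows), of the AP-1 motif TGANTCA (6.75%) or of TATAAA (12.4%). The Mdm2 window had 2 GC boxes and an E-box and no p53 match in these bases. A match describes letters and not binding.

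Cdkn1a (chr17:29309936-29319701, + strand, 3 exons) had its lowest level in uninjured muscle of either strain and a wide spread after injury. Uninjured B6 muscle had log2 CPM of 4.88, 5.63 and 6.04 in replicates 1 to 3, and uninjured MRL muscle had 5.36, 4.70 and 4.63. The saline-treated B6 libraries had 8.88, 4.81 and 8.87, and the saline-treated MRL libraries 7.45, 5.85 and 5.43. Saline-treated B6 muscle thus held both the highest values of the series and, in replicate 2, a value below every uninjured B6 library. ECM-treated B6 muscle had 7.09, 7.85 and 7.74 and ECM-treated MRL muscle 5.84, 7.28 and 7.15. PE-treated B6 muscle had 7.89, 7.37 and 8.12 and PE-treated MRL muscle 4.95, 6.77 and 6.82. All ECM- and PE-treated B6 libraries lay above all uninjured B6 libraries (no overlap in 32.3% and 51.1% of all genes). All saline- and ECM-treated MRL libraries likewise lay above all uninjured MRL libraries (no overlap in 13% and 13.1% of all genes). PE-treated MRL replicate 1 lay within the uninjured MRL range. The order of the group means was PE, ECM and saline in B6, then ECM, saline and PE in MRL, then uninjured B6 and uninjured MRL, from 7.79 ± 0.38 to 4.90 ± 0.41 (SD, n = 3), and the 6 injured groups overlapped their neighbours in this order.

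**Figure D1:**
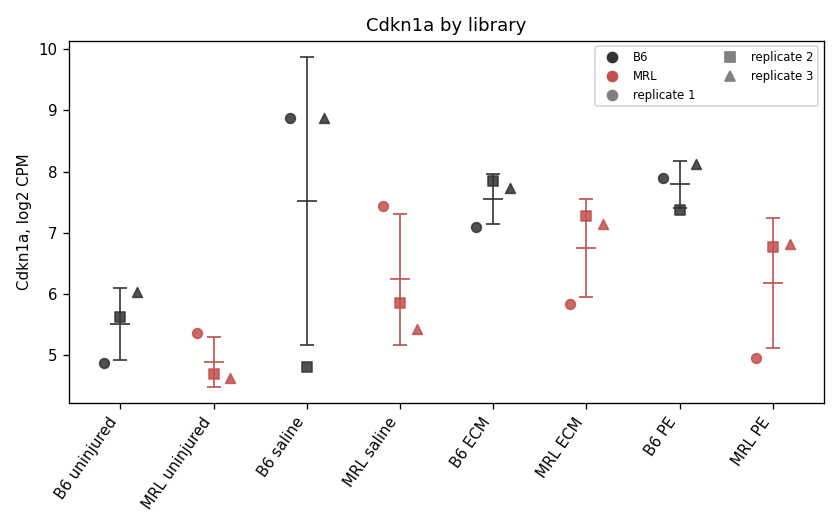
Cdkn1a in each library (points, shape by replicate number) with the group mean and SD (bars), in log2 CPM, for B6 (dark) and MRL (red). Saline-treated B6 replicate 2 sits at 4.81 beside 8.88 and 8.87. The PE-treated groups do not overlap (as in 17.5% of all genes), with MRL at most at 6.82 and B6 at least at 7.37.

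Cdkn1a was lower in MRL than in B6 mice at each of the 4 treatments, without passing the test at any. The log2 difference was -0.62 ± 0.81 (SE) in uninjured, -1.28 ± 0.81 in saline-treated, -0.80 ± 0.81 in ECM-treated and -1.61 ± 0.81 in PE-treated muscle, with adjusted p of 0.875, 0.527, 0.706 and 0.285. Averaged over treatments the difference was -1.08 ± 0.40, a level 0.474 times that of B6, with a 95% interval from -1.92 to -0.23 and an adjusted p of 0.0768. An exact permutation test of the strain labels within treatments (2-sided, 160000 relabellings) gave p = 0.0185 for this single gene, 1 of 10 members tested in this way. In that average 15.2% of all genes were called, against 2.6% in uninjured, 2.51% in saline-treated, 2.66% in ECM-treated and 3.35% in PE-treated muscle. The Cdkn1a average was called in 3 of 24 fits that left out 1 library. Without saline-treated B6 replicate 2 the average was -1.42 (adjusted p = 0.00131) and the saline difference -2.64 (adjusted p = 0.0156). The average was also called without PE-treated MRL replicate 2 (-1.15, adjusted p = 0.0413) and without saline-treated MRL replicate 1 (-1.23, adjusted p = 0.0417). Without saline-treated B6 replicate 1 the average was -0.91 and the saline difference -0.60, and neither was called. p21 transcript was detected in every MRL library, the lowest being 4.63.

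Cdkn1a rose after PE in B6 mice. Against uninjured muscle the difference was 2.28 ± 0.81 after PE (4.85-fold, adjusted p = 0.0460), 2.04 ± 0.81 after ECM (adjusted p = 0.217) and 2.00 ± 0.81 after saline (adjusted p = 0.340). The PE call was lost when any single library of its groups was left out (adjusted p from 0.0716 to 0.143), with a replicate block (0.0552) and with a constant prior variance (0.0540). Without saline-treated B6 replicate 2 the saline difference was 3.36 and was called (adjusted p = 0.00848). Without saline-treated B6 replicate 1 it was 1.32 and was not called. Replicate 2 was singled out by markers of which Myh8 followed Cdkn1a (Pearson r = 0.945). It was also the lowest of its group in Cdkn1a, Trp53, Mdm2 and Rb1. Calls of these members gained without it are therefore not independent of how it was picked. In MRL mice the differences were 1.29 ± 0.81 after PE, 1.86 ± 0.81 after ECM and 1.34 ± 0.81 after saline, and none was called (adjusted p of 0.250, 1 and 1). The response to the control injury differed between strains by -0.66 ± 1.14 (95% interval from -3.05 to 1.73), an interval that holds 0.

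The genes whose log2 CPM followed Cdkn1a most closely over the 24 libraries were Cpne2 (Pearson r = 0.963), Tnfrsf23 (0.955), Serinc5 (0.949), Sln (0.949) and Myh8 (0.945). Sln encodes sarcolipin, a regulator of the muscle calcium pump, and Myh8 the perinatal myosin of regenerating fibres. These libraries share their group structure and fibre content, so the correlations are descriptive. Myh8 was at 9.24 and 9.22 in the saline-treated B6 libraries with high Cdkn1a and at 3.16 in replicate 2. Over treatments Myh8 was lower in MRL by -2.29 (adjusted p = 0.0166). Of the 3 regenerating fibre markers 1 was called lower and 3 were lower in MRL, and their sum ranged from 20.9 to 979.1 CPM in saline-treated B6 against 38.5 to 234.6 in saline-treated MRL muscle, from 127.6 to 362.2 against 47.0 to 230.9 after ECM, and from 131.1 to 357.9 against 10.9 to 69.2 after PE. Uninjured muscle had 12.4 to 21.1 CPM in B6 and 15.3 to 45.7 in MRL, and none of the 3 was at 0. The satellite cell marker Myod1 was also lower in MRL (-0.88, adjusted p = 0.0262), and 1 of 3 satellite cell markers was called. The part of these cells in the Cdkn1a difference was not tested, and in bulk muscle fewer cells of a type and less RNA per cell cannot be told apart.

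**Figure D2:**
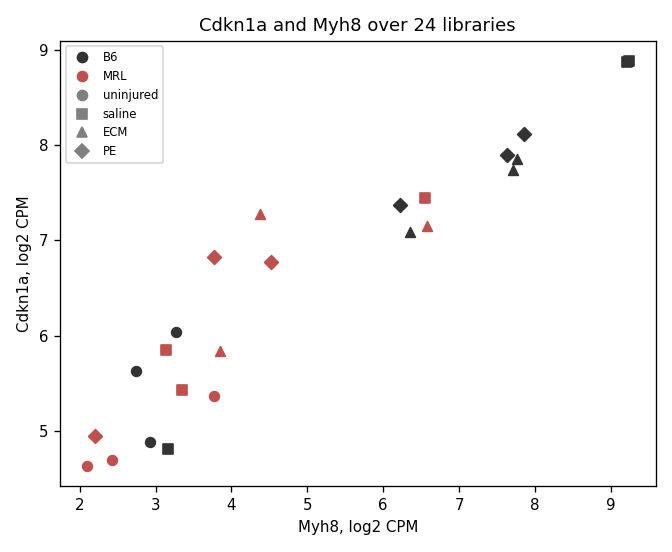
Cdkn1a against Myh8 (both log2 CPM), 1 point per library, coloured by strain and shaped by treatment. Libraries with Myh8 above 6 are mostly B6 and have Cdkn1a above 7, and saline-treated B6 replicate 2 lies among uninjured libraries.

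Of the other Cip/Kip inhibitors, Cdkn1c rose with PE in both strains and Cdkn1b fell slightly with PE in MRL mice. Cdkn1c (chr7:143012069-143014806, - strand), an imprinted inhibitor expressed from the maternal allele, was at 4.90, 4.87 and 4.46 in uninjured B6 and at 6.41, 7.27 and 6.69 in PE-treated B6 muscle. These groups did not overlap, as in 51.1% of all genes. Uninjured MRL libraries had 4.62, 4.76 and 4.99 and PE-treated MRL libraries 5.51, 7.82 and 5.70, so that replicate 2 carried most of the MRL rise. The PE difference was 2.05 ± 0.42 in B6 (adjusted p = 0.00444) and 1.55 ± 0.42 in MRL (adjusted p = 0.0448). Without PE-treated MRL replicate 2 the MRL difference was 0.81 and was not called (adjusted p = 0.194). The MRL call was kept in 2 of 6 fits that left out a library, against 6 of 6 in B6, and with a replicate block its adjusted p was 0.0504.

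In B6 mice Cdkn1c was also the single member called when PE was compared with saline (1.49 ± 0.42, adjusted p = 0.0435; 5.97% of all genes called), where saline-treated libraries had 5.28, 4.89 and 5.72. That call was lost when any single library of its groups was left out, and without saline-treated B6 replicate 2 the difference was 1.29 (adjusted p = 0.144). In MRL mice the same difference was 1.06 ± 0.42 (adjusted p = 0.157), and the responses of the strains differed by -0.43 ± 0.60 (adjusted p = 0.988). After ECM Cdkn1c was at 5.0, 5.23 and 5.46 in B6 and at 5.05, 5.42 and 5.72 in MRL muscle. These libraries lay above every uninjured library of their strain (no overlap in 32.3% and 13.1% of all genes). The differences from uninjured muscle, 0.49 ± 0.42 in B6 and 0.61 ± 0.42 in MRL, were not called. ECM minus PE was -1.56 in B6 (adjusted p = 0.0899) and -0.94 in MRL (adjusted p = 0.155). Between strains Cdkn1c differed by -0.06 ± 0.21 over treatments (95% interval from -0.50 to 0.38). After PE it differed by -0.45, and by -1.19 without PE-treated MRL replicate 2, which was then called (adjusted p = 0.00566). The closest genes by r were Txn1 (0.955), Rhoc (0.951), Slc11a1 (0.946), Cfl1 (0.944) and Rgs18 (0.941), of which Slc11a1 is a phagocyte metal transporter. All 5 measured macrophage markers were called higher after PE in B6 (24.8% of all genes called) and 4 of 5 in MRL (9.73%). Their sum was 67.5 to 87.8 CPM in uninjured and 419.6 to 1291 in PE-treated B6 muscle. It was 35.2 to 84.7 in uninjured and 136.1, 941.7 and 125.0 in PE-treated MRL muscle. None was at 0, and their part in the Cdkn1c difference was not tested. Without PE-treated MRL replicate 2, 1 of all 14159 genes was called in MRL, so at most 1 of those marker calls remained.

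Cdkn1b (chr6:134897364-134902476, + strand) spanned the narrowest range of the Cip/Kip genes, from 5.42 to 6.42 over all libraries. Uninjured muscle had 6.17, 6.03 and 6.09 in B6 and 6.29, 6.25 and 6.42 in MRL mice. Every MRL library was above every B6 library, and the groups did not overlap in 21.8% of all genes. After PE the values were 5.89, 5.74 and 5.93 in B6 and 6.06, 5.52 and 5.84 in MRL. The PE difference was -0.52 ± 0.16 in MRL (0.700 times the uninjured level, adjusted p = 0.0476) and -0.24 ± 0.16 in B6 (adjusted p = 0.244). With libraries scaled to equal totals these were -0.11 and 0.17, the latter of opposite sign, and the MRL call was lost; with a replicate block its adjusted p was 0.0522. It was kept in 2 of 6 fits that left out a library, and without PE-treated MRL replicate 2 the difference was -0.37 (adjusted p = 0.231). Over treatments Cdkn1b was 0.20 ± 0.08 higher in MRL (adjusted p = 0.0871, exact permutation p = 0.0130), in 3 of 4 treatments, and it was called without PE-treated MRL replicate 2 (0.24, adjusted p = 0.0191) or without saline-treated B6 replicate 1 (0.24, adjusted p = 0.0469).

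Among the INK4 genes, Cdkn2b was higher in MRL mice when treatments were averaged. Cdkn2b (chr4:89223204-89229276, - strand, 2 exons) had log2 CPM of 1.37, 1.67 and 0.32 in uninjured B6 and 1.42, 2.20 and 1.94 in uninjured MRL muscle. The saline-treated libraries had 1.19, 0.88 and 0.61 in B6 and 2.01, 1.49 and 1.52 in MRL, without overlap (as in 15.2% of all genes). The ECM-treated libraries had 1.26, 1.56 and 1.75 in B6 and 1.90, 1.44 and 2.37 in MRL, and these overlapped. PE-treated B6 muscle had 1.21, 1.12 and 1.27 and PE-treated MRL muscle 2.34, 2.22 and 2.49, the widest separation. The differences were 0.73, 0.78, 0.38 and 1.15 in the same order, each ± 0.32, and none was called alone (PE adjusted p = 0.0552). Without PE-treated MRL replicate 2 the PE difference was 1.21 and was called (adjusted p = 0.0197). The average was 0.76 ± 0.16, or 1.69-fold (adjusted p = 0.00286, exact permutation p = 0.000212), higher in 4 of 4 treatments. It was called in 24 of 24 fits that left out 1 library, with differences from 0.66 to 0.83. All libraries lay above the level of 3 counts. PE minus the control injury in MRL was 0.67 ± 0.32 (adjusted p = 0.213).

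Cdkn2a (chr4:89192708-89212890, - strand) lies 10313 bases from Cdkn2b and encodes p16 and p19Arf from overlapping exons, which a gene total does not separate. It was near the limit of detection. It was listed at the value of 0 counts in saline-treated B6 replicate 2 and PE-treated MRL replicate 1, and the uninjured MRL libraries had -3.12, -2.82 and -2.11, of which the first and second lie under 3 counts. Uninjured B6 libraries had -2.21, -1.29 and -1.39. ECM-treated B6 muscle had 0.67, 0.83 and 1.29 and PE-treated B6 muscle 0.40, 0.56 and 0.01, above every uninjured B6 library (no overlap in 32.3% and 51.1% of all genes). MRL values after injury were 2.21, -1.34 and -0.81 with saline, -1.15, -1.32 and 1.48 with ECM, and 1.63 and -1.20 with PE beside the library at 0 counts, so that a single library per group was above 1. The saline- and ECM-treated MRL libraries also lay above every uninjured MRL library (no overlap in 13% and 13.1% of all genes). The MRL differences of 2.70 ± 1.13 (saline), 2.35 ± 1.13 (ECM) and 1.61 ± 1.13 (PE) were not called. The B6 differences of 2.56 ± 1.13 (ECM) and 1.95 ± 1.13 (PE) were not called (adjusted p of 0.271 and 0.195). With the compared groups alone both were called (adjusted p of 0.0235 and 0.0159). Over the settings other than library weights they ranged from 1.18 to 2.73 and from 0.80 to 2.32. The strain average was -0.55 ± 0.56 (adjusted p = 0.524). Fitted differences against the uninjured libraries of either strain depend on the prior count and are not given as folds. The closest genes by r were C1qtnf3 (0.847), Edil3 (0.843), Cthrc1 (0.839), Col12a1 (0.838) and Abi3bp (0.836), and Col12a1 encodes a fibril-associated collagen.

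Cdkn2c (chr4:109517957-109524386, - strand) varied widely within groups. Its SD within groups was 1.04, and its group means ranged from 3.60 to 5.35. Uninjured B6 libraries had 4.29, 6.37 and 4.17 and uninjured MRL libraries 2.26, 4.99 and 3.55. PE-treated B6 libraries had 3.36, 3.92 and 3.78 and PE-treated MRL libraries 6.28, 3.90 and 5.89. The PE difference was -1.26 ± 0.78 in B6 and 1.75 ± 0.78 in MRL, neither called (adjusted p of 0.230 and 0.118). Between PE-treated strains the difference was 1.67 ± 0.78 (adjusted p = 0.255), and 2.40 without PE-treated MRL replicate 2 (adjusted p = 0.0369). The strain average was 0.01 ± 0.39. The closest genes were Slc1a5 (r = 0.954), Apoc1 (0.953), Ptplb (0.948), Kbtbd11 (0.947) and Aldh3b2 (0.946). The 4 adipocyte markers (Adipoq, Plin1, Cidec and Lep) had positive differences between PE-treated MRL and B6 muscle, of which 1 of 4 was called (Lep, 4.82), with sums of 1653, 98.4 and 974.9 CPM in MRL against 24.6 to 71.8 in B6. The MRL libraries high in Cdkn2c, replicates 1 and 3, were those high in adipocyte markers, and the part of adipocytes was not tested.

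**Figure D3:**
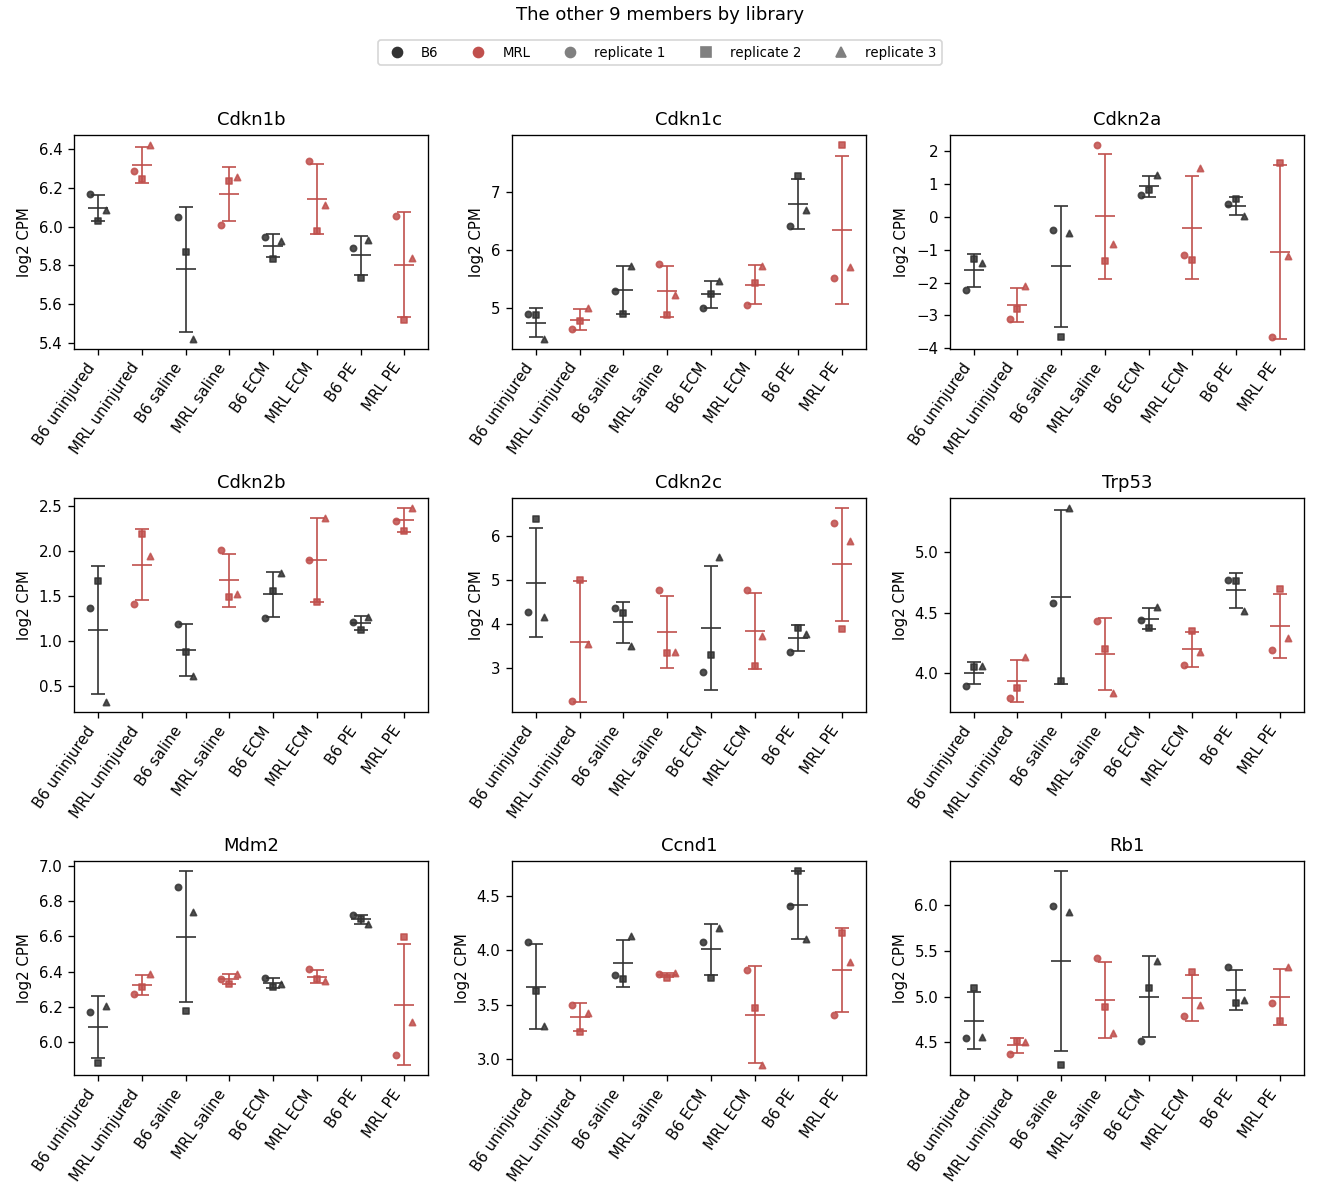
The other 9 members in each library (points, shape by replicate number) with the group mean and SD, in log2 CPM on separate scales. Cdkn2b separates PE-treated MRL (2.22 to 2.49) from PE-treated B6 muscle (1.12 to 1.27), while Cdkn2a and Cdkn2c spread widely within groups.

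In the p53 pathway, Mdm2 rose after PE in B6 mice, and Trp53 lay at the threshold there. Trp53 (chr11:69469669-69482701, + strand, 11 exons) had 3.89, 4.05 and 4.05 in uninjured B6 and 4.77, 4.76 and 4.51 in PE-treated B6 muscle. These groups did not overlap, as in 51.1% of all genes. The difference of 0.68 ± 0.25 had an adjusted p of 0.0506, at the threshold. It passed at the same difference with a minimum mean level (adjusted p = 0.0486) and with the compared groups alone (0.0166), and with libraries scaled to equal totals (1.10, adjusted p = 0.0242). After saline the B6 libraries had 4.58, 3.93 and 5.37, a difference of 0.63 ± 0.25, which was 0.97 and called without replicate 2 (adjusted p = 0.0227). Without replicate 3 it was 0.26 and was not called. In MRL mice PE changed Trp53 by 0.46 ± 0.25 (adjusted p = 0.189). Between strains Trp53 was lower in MRL in 4 of 4 treatments, by -0.27 ± 0.12 on average (adjusted p = 0.140, exact permutation p = 0.0243). Without saline-treated B6 replicate 2 that average was -0.36 and was called (adjusted p = 0.0178), and the saline difference went from -0.47 (adjusted p = 0.427) to -0.82 (adjusted p = 0.0396). Without saline-treated B6 replicate 3 they were -0.18 and -0.10, and neither was called. Exons of Trp53 overlap those of Wrap53 on the other strand, and reads from the shared part cannot be told apart.

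Mdm2 (chr10:117524780-117546730, - strand), the ubiquitin ligase of p53, had 6.17, 5.88 and 6.21 in uninjured B6 muscle and 6.72, 6.70 and 6.67 in PE-treated B6 muscle. The rise of 0.61 ± 0.16 was 1.52-fold (adjusted p = 0.0160) and was called in 4 of 6 fits that left out a library. Saline-treated B6 libraries had 6.88, 6.18 and 6.74, and the difference of 0.51 ± 0.16 (adjusted p = 0.302) became 0.72 (adjusted p = 0.0168) without replicate 2. Without replicate 1 it was 0.37 and was not called. PE-treated MRL libraries had 5.93, 6.60 and 6.12 against 6.28, 6.31 and 6.39 in uninjured MRL muscle, where only replicate 2 was above. The PE-treated strains did not overlap (as in 17.5% of all genes), and their difference of -0.48 ± 0.16 was not called (adjusted p = 0.113). It was -0.67 and called without PE-treated MRL replicate 2 (adjusted p = 0.0040), where 3490 of all genes were called. In uninjured muscle Mdm2 was 0.24 ± 0.16 higher in MRL (adjusted p = 0.696), and the strain average was -0.11 ± 0.08 (adjusted p = 0.359).

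Ccnd1 (chr7:144483668-144493662, - strand, 5 exons) was lower in MRL mice and rose with PE in B6 mice. Uninjured libraries had 4.08, 3.62 and 3.30 in B6 and 3.50, 3.24 and 3.42 in MRL. The ECM-treated libraries had 4.08, 3.75 and 4.21 in B6 and 3.82, 3.46 and 2.94 in MRL. PE-treated libraries had 4.41, 4.74 and 4.11 in B6 and 3.40, 4.17 and 3.89 in MRL. Saline-treated libraries differed least, with 3.77, 3.74 and 4.13 in B6 and 3.78, 3.75 and 3.79 in MRL. The groups overlapped between strains at every treatment. The average difference was -0.40 ± 0.12, a level 0.759 times that of B6 (adjusted p = 0.0341, exact permutation p = 0.00307), lower in 4 of 4 treatments, and it was called in 12 of 24 fits that left out a library. The largest differences were -0.60 ± 0.24 after ECM and -0.60 ± 0.24 after PE (adjusted p of 0.281 and 0.187), and the PE difference was -0.77 and called without PE-treated MRL replicate 2 (adjusted p = 0.0377). The PE response was 0.75 ± 0.24 in B6 (1.68-fold, adjusted p = 0.0336, called in 2 of 6 such fits) and 0.43 ± 0.24 in MRL (adjusted p = 0.205). The B6 call was lost under quantile normalization (0.63, adjusted p = 0.0558) and with the compared groups alone (0.0638).

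Rb1 (chr14:73421113-73563507, - strand, 27 exons) was at its highest in saline-treated B6 muscle, where the libraries had 6.00, 4.24 and 5.92. Uninjured libraries had 4.55, 5.09 and 4.56 in B6 and 4.37, 4.52 and 4.50 in MRL. All MRL libraries were below all B6 libraries there, and the groups did not overlap in 21.8% of all genes. The saline difference in B6 was 0.66 ± 0.35 (adjusted p = 0.445), and 1.23 without replicate 2 (adjusted p = 0.0191). Without that library saline-treated MRL muscle was lower than saline-treated B6 muscle by -0.996 (adjusted p = 0.0413), against -0.42 with it (adjusted p = 0.659). Without saline-treated B6 replicate 1 the B6 saline difference was 0.35 and the strain difference -0.12, and neither was called. PE changed Rb1 by 0.34 ± 0.35 in B6 and 0.53 ± 0.35 in MRL, with no call. The strain average was -0.19 ± 0.18 (adjusted p = 0.461), lower in 4 of 4 treatments. Exons of Rb1 overlap those of Lpar6 and Rcbtb2 on the other strand, both in the matrix, and reads from the shared parts cannot be told apart. Transcripts of 5 genes in the matrix, Lpar6 and Rcbtb2 among them, match Rb1 at 90% identity or more over 50% of the shorter transcript, so its level is uncertain to that extent.

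**Figure D4:**
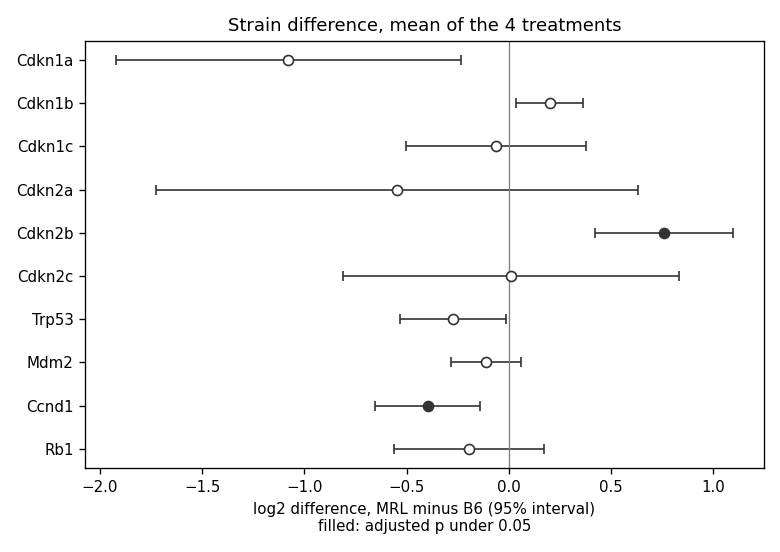
MRL minus B6 averaged over the 4 treatments for each member, as a log2 difference with its 95% interval, filled where the adjusted p was under 0.05. Cdkn2b (0.76) and Ccnd1 (-0.40) are filled, and Cdkn1a (-1.08) has the largest difference with an interval from -1.92 to -0.23.

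Across the list, 2 of 10 members were called in the strain average, 1 in each direction, beside 15.2% of all genes, and the members' median was -0.15 against -0.01 over all genes. At the single treatments limma called 0 of 10 members, with 1 (uninjured), 2 (saline), 1 (ECM) and 4 (PE) at an unadjusted p under 0.05, where 1549, 1880, 1901 and 2709 of all 14159 genes lay. After PE 4 of 10 were called in B6 mice, all higher, beside 24.8% of all genes, and 2 of 10 in MRL mice, 1 in each direction, beside 9.73%. The members' median PE difference was 0.65 in B6 and 0.51 in MRL, against 0.02 and 0.07 over all genes. The PE comparisons of the strains have separate controls.

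**Figure D5:**
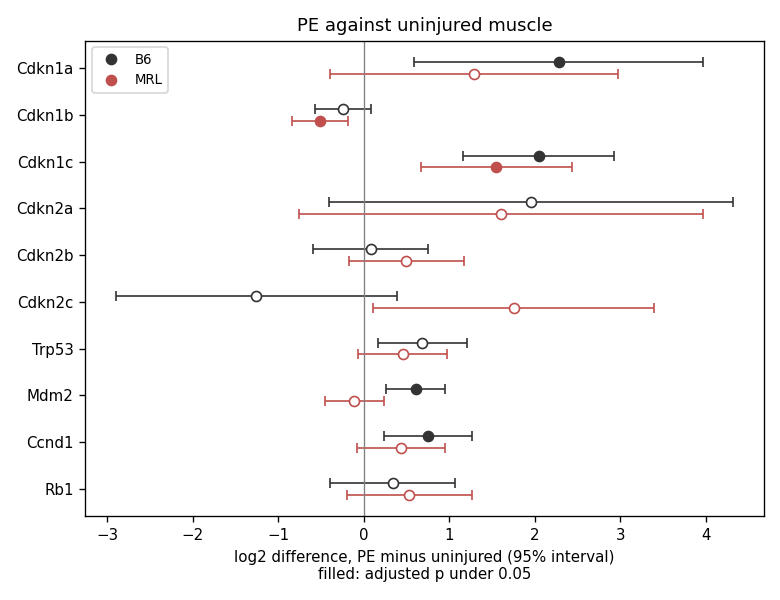
PE minus uninjured for each member in B6 (dark) and MRL (red), as a log2 difference with its 95% interval, filled where the adjusted p was under 0.05. Cdkn1c is filled in both strains (2.05 and 1.55), Cdkn1a, Mdm2 and Ccnd1 in B6, and Cdkn1b in MRL (-0.52).

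In the remaining comparisons limma called none of the 10. At an unadjusted p under 0.05 there were 3 members for B6 saline minus uninjured (0% of all genes called, 1751 genes at an unadjusted p under 0.05), 2 for B6 ECM minus uninjured (0.424%, 2372 genes unadjusted), 1 for B6 ECM minus saline (0.0283%, 565 genes) and 2 for B6 ECM minus PE (0.226%, 2911 genes). In MRL mice there were 1 for saline minus uninjured (0%, 439 genes unadjusted), 1 for ECM minus uninjured (0.0141%, 538 genes), 0 for ECM minus saline (0.00706%, 503 genes), 3 for PE minus saline (0%, 3298 genes) and 2 for ECM minus PE (0%, 4022 genes). For the tests of a difference between the strains' responses there were 0 members at an unadjusted p under 0.05 and 0% of all genes called, for saline against uninjured (570 genes unadjusted), ECM against saline (320) and PE against saline (614).

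The other genes of the pathway are given first for PE against uninjured muscle in B6 mice, where 24.8% of all genes were called. Of 24 p53 targets 10 were called higher and 1 lower, among them the cell death gene Pmaip1 (4.67, adjusted p = 0.0122), the stress cytokine Gdf15 (4.0) and the kinase gene Plk2 (2.39), while the ribonucleotide reductase subunit Rrm2b was lower (-1.09). Of 10 E2F factors and partners 4 were higher, led by E2f1 (2.67) and E2f8 (2.36), and Tfdp2 (-1.37) and E2f6 (-1.26) were lower. Of 21 measured E2F target and division genes 9 were higher and 0 lower, including Top2a (2.32), Birc5 (2.27) and Cdk1 (1.93). Cdk6 (2.23), a partner of cyclin D1, and Ccne1 (1.78) were the called genes of 7 G1 cyclins and CDKs. Skp2 (1.51) and Cks1b (1.16), which direct p27 to degradation, were the called genes of 6 in their group. Of the pocket protein genes related to Rb1, Rbl1 was higher (0.99) and Rbl2 lower (-0.49). Of 9 measured genes linked to senescent cells or their secretion 7 were higher, led by Mmp12 (10.71), Il1b (5.48) and Mmp3 (4.01), which macrophages and neutrophils also express. The median difference was 0.24 for the p53 targets, 1.46 for the division genes and 1.67 for the genes linked to senescent cells, against 0.02 over all genes. All 5 macrophage and 2 of 2 measured neutrophil markers were higher in the same comparison, and their part was not tested.

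In MRL mice the same comparison called 9.73% of all genes, and these calls depended on the processing. Of all 14159 genes 0 were called under quantile normalization, with the compared groups alone or with a constant prior variance, and 9 with a replicate block. Without PE-treated MRL replicate 2, 1 gene was called, so at most 1 of the calls named here remained. Of the p53 targets Fas (1.12) was higher and Aen (-0.81) lower. E2f1 (2.26), Cdk1 (2.11), Ccnb1 (2.30), Ccnd2 (1.14), Ccnd3 (0.90) and Rbl1 (1.30) were higher, and Rbl2 (-0.61) and Rbx1 (-0.51) lower. Glb1 (1.68) and Mmp3 (3.38) were the called genes of the list linked to senescent cells. A difference in counts between the strains is not a test of their responses.

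Averaged over treatments, where 15.2% of all genes were called, 3 of 24 p53 targets and 3 of 11 p53 regulators were called between strains, in both directions. Phlda3, an Akt inhibitor, was lower in MRL (-1.14, adjusted p = 3.92e-05), as was the death receptor Fas (-0.73), while the nuclease Aen was higher (0.76). Of the p53 regulators Mdm4 (-0.78) and Rchy1 (-0.18) were lower and Hipk2 (0.67) higher. E2f7 (-1.25), an E2F repressor, Pcna (-0.63), Mcm2 (-0.35), Rbl1 (-0.51), Fbxw7 (-0.29), Ccl2 (-1.28), Glb1 (-1.33) and the imprinted Peg3 (-1.13) were lower, and Tfdp2 (0.79) and Aurka (1.79) were higher. Of the 24 targets 19 were lower in MRL, with a median of -0.10, and 19 of 21 division genes, with a median of -0.38, against -0.01 over all genes.

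The members moved partly together over the 24 libraries. Cdkn1a correlated with Trp53 (r = 0.825), Rb1 (0.800), Cdkn2a (0.727) and Mdm2 (0.681) and inversely with Cdkn1b (-0.624). Trp53 and Cdkn1b had r = -0.793. Cdkn2b correlated with no other member beyond 0.43 in size. These values describe libraries that share treatment and tissue makeup, and carry no test.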

How the data were processed

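Total RNA of 24 quadriceps samples was sequenced after polyA selection. The authors quantified transcripts with kallisto against Ensembl GRCm39 cDNA, summed them to symbols with tximport (lengthScaledTPM), kept genes above 1 CPM in at least 3 libraries, applied edgeR's TMM scaling and deposited log2 CPM with a prior count of 2. The study's voom fit needs counts, so limma was used on these values instead. Of 14160 rows, 1 without a symbol was left out. Low counts limit the precision of low genes.

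The limma fit (3.58.1, R 4.3.3) had 1 coefficient per group, a variance trend, 2-sided tests and Benjamini-Hochberg adjustment over 14159 genes in each of 20 comparisons. Marker sums in CPM were taken after subtracting the prior. Exact permutation tests were 2-sided. Members and gene lists were chosen with earlier results of these data known. All 10 members are named, with up to 3 called genes per list, comparison and direction, and the 5 genes of highest Pearson r with a member. Lep and Myod1 among the markers follow the same rule. Code was tested on simulated data. Positions came from GENCODE on GRCm39, and copies from BLAST 2.17.0 at 90% identity over 50% of the shorter transcript, which found copies in the matrix for 1 member, Rb1. Python 3.11.15, pandas 2.3.3 and matplotlib 3.10.9 were used. Marker genes missing from the matrix, such as Adgre1, were not analysed here.

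Replicate numbers were checked by the correlation of residuals of same-numbered libraries. Every pair was above 0.1 only between the PE-treated strains (0.105, 0.532 and 0.439), where a replicate block changed no member's call. The settings varied were the pseudocount (log2(CPM + 1)), a minimum mean log2 CPM of 1, equal totals, quantile normalization, the compared groups alone, library weights, a constant prior variance, the replicate block and leaving out each library.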

Additional observations from a re-analysis of the deposited data

How the results depend on the processing

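Leaving out each library in turn gave 1 to 4 called members in the strain average, 0 to 3 for saline-treated and 0 to 5 for PE-treated MRL minus B6, 0 to 4 for B6 saline minus uninjured, 1 to 3 for B6 PE minus uninjured, 0 for B6 PE minus saline and 0 to 2 for MRL PE minus uninjured. Small differences changed sign within these fits: the strain average of Cdkn2c ranged from -0.16 to 0.21 and of Cdkn1c from -0.25 to 0.043, saline-treated MRL minus B6 for Ccnd1 from -0.18 to 0.018, and the strain difference in the Cdkn1a response from -2.02 to 0.022 for saline and from -1.01 to 1.02 for PE against saline. None of these had been called.

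The log2(CPM + 1) scale called 1 member between PE-treated strains. Equal totals called 0 for B6 PE minus saline and 1 for MRL PE minus uninjured, and reversed Cdkn1b after ECM between strains (-0.013), Cdkn1b in B6 PE minus uninjured (0.17) and the strain average of Cdkn2c (-0.13), while it moved the median of all genes by up to 0.41 (B6 PE minus uninjured). Quantile normalization and a constant prior variance each called 1 between PE-treated strains (Cdkn2b), 0 for B6 PE minus saline and 0 for MRL PE minus uninjured. In B6 PE minus uninjured the first lost Ccnd1 (adjusted p = 0.0558) and the second Cdkn1a (0.0540). Fitting the compared groups alone called 2 for B6 ECM minus uninjured (Cdkn1a and Cdkn2a), 1 for B6 ECM minus PE and 0 for MRL PE minus uninjured; the strain average uses every group and has no such fit. With the replicate block 0 were called for B6 PE minus saline (Cdkn1c adjusted p = 0.0509) and 0 for MRL PE minus uninjured, Cdkn1a was lost in B6 PE minus uninjured, and no other call changed.

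Library weights, whose estimation did not converge, called 4 in saline-treated and 8 in PE-treated MRL minus B6, 8 in the strain average, 5, 2 and 9 for B6 saline, ECM and PE minus uninjured, 2 for B6 ECM minus saline, 9 for B6 PE minus saline, 4 for B6 ECM minus PE, 4 for MRL PE minus saline, 2 for MRL ECM minus PE, and 1, 2 and 6 for the strain differences in the response to saline, ECM and PE. Of all 14159 genes these weights called 5919, 7996 and 8053 in the strain comparisons named first. For B6 saline, ECM and PE minus uninjured they called 4785, 2687 and 9004. The next comparisons, in the order above, had 2227, 9640, 5579, 3303 and 2311. The strain differences in response had 916, 465 and 4316. The member counts are therefore not particular to the members. The weights also reversed Ccnd1 in saline-treated muscle (0.00082) and the Cdkn1a response to PE (1.26). The cause was not tested.

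Over all genes, the main fit called 2158 in the strain average, and leaving out a library 1656 to 4637. The ranges were 533 to 3435 for B6 PE minus uninjured (3508), 0 to 3427 for MRL PE minus uninjured (1377), 234 to 3490 between PE-treated strains (474), 230 to 613 between saline-treated strains (356) and 2 to 1281 for B6 PE minus saline (845). MRL PE minus uninjured gave 0 calls under quantile normalization, the compared groups alone and a constant prior variance, and 9 with the replicate block. The minimum mean level gave 242 between PE-treated strains. Cdkn2a, near 3 counts in many libraries, is limited by depth.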
